A study of Mus musculus with 8 samples.

Results

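The genes described here encode the adaptor Blnk and the proteins around it in pre-B cell receptor signalling: the receptor chains Cd79a and Cd79b, the kinases Lyn, Blk, Syk and Btk, the adaptor Pik3ap1, the lipase Plcg2 and the phosphatase Ptpn6. They were chosen by name, as all non-control probes whose gene name is one of these 10 genes, which gave 15 of the 41174 probes on the array. Lyn had 2 probes, Pik3ap1 and Ptpn6 had 3 each, and the other genes had 1. All 15 were among the 29464 probes tested.

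The data are 8 dual-channel Agilent mouse arrays, on which 4 RNAs were each compared with RNA of clone 4 cells kept without doxycycline, with the dyes swapped on the second array of each pair. All cells were bone marrow-derived pro/preB cells of genotype Pax5-/-, grown with IL-7 on gamma-irradiated OP9 stromal feeder cells, so no group had a working endogenous Pax5 gene and all could carry some feeder RNA. Clone 4 is a single clone that carried the transactivator rtTA, which needs doxycycline, and a huPax5 transgene (human Pax5) under its control. It was given doxycycline at 10, 300 or 1000 ng/ml, or none. Pax5sz2 cells were transduced with rtTA only and are labelled as treated with doxycycline, with no dose stated. They differ from the control, which is clone 4, in transgene, treatment and clone, and these cannot be told apart. Each comparison rests on 1 RNA of each kind, hybridised on 2 arrays that are technical repeats, and ± below is the SD of those 2 arrays. A single comparison therefore had no test. A gene is called higher or lower below where its log2 ratio was at least 1 in size, that is 2-fold, on both arrays in the same direction.

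Before the heavy chain meets a conventional light chain, it reaches the cell surface with the surrogate light chain, and the pair signals through Cd79a and Cd79b, which carry the tyrosine motifs of the receptor. Src-family kinases, in B cells chiefly Lyn and Blk, phosphorylate these motifs, Syk docks on them, and Syk phosphorylates Blnk. Blnk then brings Btk and Plcg2 together for the calcium signal. In mice Blnk and Cd79a are known as genes that Pax5 activates, together with Ebf1 in the case of Cd79a.

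Because Blnk and Cd79a are known targets of Pax5, their sequences just upstream of the transcript start are shown. Of the 10 members, 7 had an entry in the RefSeq table of upstream sequences (build GRCm38.p6). Both sequences run 5′ to 3′ on the gene's strand and end at the base before the start. That of Blnk lies at chr19:40994222-40994471 on the minus strand, and that of Cd79a at chr7:24897247-24897496 on the plus strand. Capitals mark matches, on either strand, to the octamer ATTTGCAT, the Ets motif CAGGAAGT or the E-box CAGGTG.
Blnk: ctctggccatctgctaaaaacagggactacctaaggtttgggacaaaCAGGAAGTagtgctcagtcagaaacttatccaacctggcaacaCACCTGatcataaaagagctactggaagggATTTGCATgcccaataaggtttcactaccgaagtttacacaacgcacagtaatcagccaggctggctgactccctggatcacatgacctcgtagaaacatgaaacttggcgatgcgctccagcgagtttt
Cd79a: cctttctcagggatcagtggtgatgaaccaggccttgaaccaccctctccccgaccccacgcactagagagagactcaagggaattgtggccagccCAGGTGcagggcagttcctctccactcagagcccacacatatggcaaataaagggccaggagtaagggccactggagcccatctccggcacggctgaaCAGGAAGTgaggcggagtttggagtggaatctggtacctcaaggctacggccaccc
The octamer stood 130 bases before the start of Blnk and the Ets motif 203 bases before it, while the Ets motif of Cd79a stood 56 bases before its start. Over all 32851 upstream sequences of the same length, 1.60% held the octamer, 2.69% the Ets motif and 17.2% the E-box on at least 1 strand. Neither held the exact letters GCGTGAC, which are part of some Pax5 sites. Pax5 sites vary in sequence and other forms were not searched, so this does not show that a site is absent. The 4 motifs, none of which overlap here, were picked after the sequences had been read, and a match is a run of letters, not a shown binding site.

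The pair of arrays at 1000 ng/ml stands apart. Its log2 ratios correlated at r = -0.36 with those of the 300 ng/ml array of the same dye orientation where the treated RNA was in Cy5, and at -0.46 where it was in Cy3, over all probes. The direction of that pair is for this reason not settled. Its ratios are given as labelled, and each would have the opposite sign if the RNAs had been exchanged. Per the files, these 2 arrays were rehybridised slides scanned under an older extraction protocol than the 6 others, so the dose and the array set cannot be told apart. Across tested features, the 2 arrays of a pair correlated at 0.84 for 10 ng/ml, 0.64 for 300 ng/ml, 0.83 for 1000 ng/ml and 0.92 for Pax5sz2. Of the pro-B and pre-B cell markers, all 17 were tested, and 2 of them, Igll1 and Vpreb1, were not well above background in either RNA at 300 ng/ml. Igll1 was dim in this way at 1000 ng/ml as well, while Cd79b was bright on all 8 arrays. Pax5 had 2 probes, and neither need detect human Pax5. The one for the coding transcript differed by no more than 0.45 (log2) in size between the RNAs of any pair. The brighter one, named Pax5 in the files through a RIKEN cDNA clone described as unclassifiable (mm8, chromosome 4, from 44546164 to 44546223 on the minus strand), had log2 ratios of 2.66 ± 0.20 with 10 ng/ml, 2.35 ± 0.05 with 300 ng/ml and 3.02 ± 0.19 in Pax5sz2, all higher by the 2-fold rule. It was thus 8.12-fold higher in the Pax5sz2 cells, which have no huPax5 transgene. With 1000 ng/ml it had 0.11 ± 0.20 and was not well above background in either RNA. The 2 Pax5 probes therefore disagree, and which transcript the brighter one detects was not tested.

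In none of the 10 genes did the 10 ng/ml RNA differ from the control by the 2-fold rule, which 1.88% of 19995 features passed. At 300 ng/ml 1 of 10 passed, Blnk, which was higher, against 1.32% of features higher and 3.71% in either direction. At 1000 ng/ml, as labelled, 2 of 10 passed, Blnk and Cd79a, both lower, against 0.637% of features lower and 2.58% in either direction. In Pax5sz2 2 of 10 passed, Blnk and Blk, both lower, against 2.82% of features lower and 5.15% in either direction. The median log2 ratio of the 10 genes was -0.22 for the 10 ng/ml RNA, -0.47 for 300 ng/ml, -0.01 for 1000 ng/ml and -0.30 for Pax5sz2, where the median of all features lay between 0.00 and 0.03. With arrays centred on their median in place of loess, the members' medians became 0.10, -0.25, -0.03 and 0.17 in the same order, beside 0.07, 0.04, -0.02 and 0.15 for all features. The sign of the shift at 10 ng/ml and in Pax5sz2 thus depended on the scaling.

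**Figure D1:**
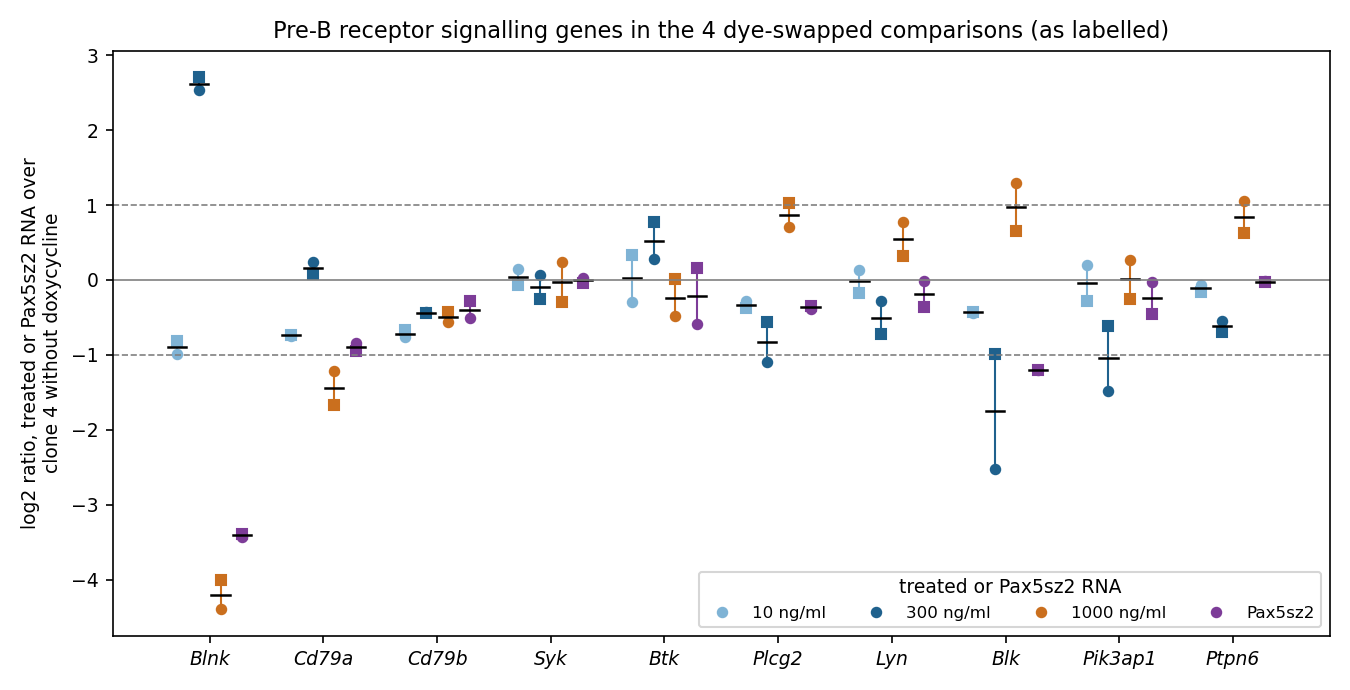
Log2 ratio of each gene over clone 4 without doxycycline, for its brightest probe, in the 4 comparisons as labelled. Circles are arrays with the treated or Pax5sz2 RNA in Cy5, squares the dye swap, bars the mean of both, and dashed lines 2-fold: Blnk lay at 2.62 at 300 ng/ml and at -4.20 at 1000 ng/ml, while the Syk symbols lay between -0.29 and 0.25.

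The adaptor Blnk had the widest spread of ratios. Its probe lies on chromosome 19, from 40982249 to 40982308 on the minus strand in build mm8. At 10 ng/ml its log2 ratios were -0.99 and -0.81, so the treated RNA was lower than the control on both arrays but short of 2-fold. At 300 ng/ml they were 2.53 and 2.70, a 6.14-fold higher signal in the treated RNA, and only 4 of 19824 features had a higher ratio. At 1000 ng/ml they were -4.39 and -4.01 as labelled, 18.4-fold lower, and 1 of 19927 features had a lower ratio. With the sign turned the 1000 ng/ml RNA would be higher by 4.20 on the log2 scale. The ratios of 300 and 1000 ng/ml would then lie on the same side of 0, and those of 10 ng/ml on the other. In Pax5sz2 cells, which have no huPax5 transgene, the ratios were -3.43 and -3.39. That is 10.6-fold lower than in clone 4 without doxycycline, and 5 of 20001 features had a lower ratio.

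The separate channels give the level of each RNA, as normalised log2 intensity. For Blnk the treated RNA read 10.83 and 11.06 with 10 ng/ml and 14.67 and 14.53 with 300 ng/ml, and the Pax5sz2 RNA 8.68 and 8.55, against 11.82 to 12.14 (median 11.91) in the control RNA on those 6 arrays. On the arrays at 1000 ng/ml the RNA labelled as treated read 12.20 and 12.34, which is 0.37 above the control median elsewhere. The RNA labelled as control read 16.60 and 16.35 there, 4.57 above that median. So on that pair the RNA labelled as treated read closer to the control level of the other arrays than the RNA labelled as control did.

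**Figure D2:**
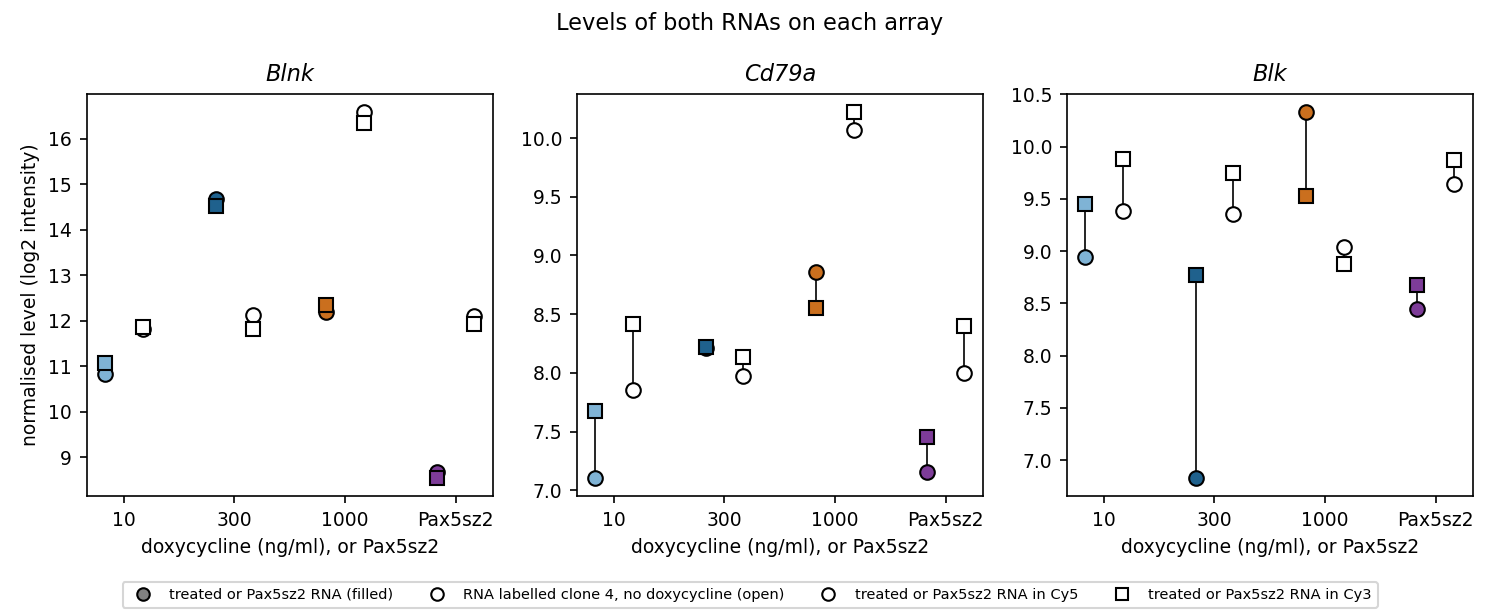
Normalised log2 intensity of both RNAs on each array for Blnk, Cd79a and Blk, each panel with its own vertical range. Filled symbols are the treated or Pax5sz2 RNA and open symbols the RNA labelled clone 4 without doxycycline, circles for arrays with the treated or Pax5sz2 RNA in Cy5 and squares for the dye swap: the open symbols of Blnk lay between 11.82 and 12.14 except on the 1000 ng/ml arrays.

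The receptor chains behaved unlike each other. Cd79a (mm8, chromosome 7, from 24608094 to 24608351 on the plus strand, a span of 258 bases, longer than the probe), which encodes Ig-alpha, had log2 ratios of -0.75 and -0.74 with 10 ng/ml and 0.24 and 0.09 with 300 ng/ml. At 1000 ng/ml it had -1.21 and -1.67 as labelled, and in Pax5sz2 -0.84 and -0.95. It passed the rule at 1000 ng/ml only, as 2.72-fold lower, and read lower in Pax5sz2 on both arrays but short of 2-fold. With median centring Cd79a did not pass at 1000 ng/ml, and with the processed signals of the scanner software it passed in Pax5sz2, at -1.12, as it did with the deposited ratios, at -1.18. At 1000 ng/ml the RNA labelled as treated read 8.86 and 8.55 and the RNA labelled as control 10.07 and 10.22. On the 6 other arrays the control read 7.85 to 8.41 (median 8.07), so both RNAs lay above that range, the one labelled as control by more.

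Cd79b (mm8, chromosome 11, from 106127556 to 106127615 on the minus strand), which encodes Ig-beta, read lower in the treated or Pax5sz2 RNA on all 8 arrays, by less than 2-fold. Its log2 ratios were -0.76 and -0.67 with 10 ng/ml, -0.43 and -0.44 with 300 ng/ml, -0.57 and -0.42 with 1000 ng/ml and -0.51 and -0.28 in Pax5sz2. It had the smallest unadjusted p of the members in the limma fit described below. With median centring the Pax5sz2 ratio of Cd79b was 0.17, so that its direction there was not settled, while those at the 3 doses kept their sign under 7 alternative settings.

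Among the kinases, Blk moved most. This Src-family kinase is largely restricted to B cells, and its probe (mm8, chromosome 14, from 62332606 to 62333743 on the minus strand, a span of 1138 bases) was well above background in all 16 channels. Its ratios were -0.44 and -0.43 at 10 ng/ml. At 300 ng/ml they were -2.53 and -0.98, with a mean of -1.75 ± 1.09, so that Blk missed the rule there by the second array alone. At 1000 ng/ml they were 1.29 and 0.65 as labelled, and in Pax5sz2 both were -1.20, a 2.29-fold lower signal. The 2 arrays at 300 ng/ml differed most in the treated channel, which read 6.83 and 8.77, whereas the control read 9.36 and 9.75. Under the processed signals of the scanner software, the deposited ratios and median centring, Blk passed at 300 ng/ml as lower. With median centring its ratio in Pax5sz2 was -0.94, short of the rule.

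Lyn, the Src-family kinase with both activating and inhibitory roles in B cells, did not pass in any comparison. Its brighter probe (mm8, chromosome 4, from 3717973 to 3718032) gave 0.13 and -0.17 with 10 ng/ml, -0.28 and -0.73 with 300 ng/ml, 0.77 and 0.32 with 1000 ng/ml and -0.02 and -0.36 in Pax5sz2. Its dimmer probe had means of 0.09, -0.32, 0.36 and -0.50 in the same order. Both probes of Lyn thus read lower at 300 ng/ml and higher at 1000 ng/ml as labelled on each array.

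Syk, the kinase that phosphorylates Blnk, was the steadiest member, with means of 0.04 with 10 ng/ml, -0.09 with 300 ng/ml, -0.02 with 1000 ng/ml and -0.01 in Pax5sz2. With median centring the ratio of Syk in Pax5sz2 was 0.34. Its array ratios under loess lay between -0.29 and 0.25 (mm8, chromosome 13, from 52660724 to 52660783). Btk, the Tec-family kinase that activates Plcg2, had ratios of 0.28 and 0.77 at 300 ng/ml. In the other comparisons the 2 arrays of Btk lay on opposite sides of 0, with -0.29 and 0.34 for 10 ng/ml, -0.48 and 0.01 for 1000 ng/ml and -0.58 and 0.16 in Pax5sz2 (mm8, chromosome X, from 129888872 to 129888931). In those 3 comparisons the 2 arrays of Btk were further from each other than their mean was from 0.

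Plcg2, the phospholipase that Blnk brings to Btk, had ratios of -0.29 and -0.37 with 10 ng/ml, -1.09 and -0.56 with 300 ng/ml, 0.71 and 1.03 with 1000 ng/ml as labelled and -0.38 and -0.35 in Pax5sz2. None passed, since at both higher doses 1 of the 2 arrays stayed under 2-fold. On the 1000 ng/ml pair the RNA labelled as treated read 16.15 and 15.95 for this probe (mm8, chromosome 8, from 120521057 to 120521114), and the RNA labelled as control 15.45 and 14.92. The control read 15.73 to 16.05 on the 6 other arrays, so again the RNA labelled as control lay further from that range.

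Pik3ap1, an adaptor that links the receptor to PI3 kinase, had 3 probes. The brightest (mm8, chromosome 19, from 41326896 to 41326955) gave -1.48 and -0.61 at 300 ng/ml, a mean of -1.04 that did not pass with loess but did with median centring, and means between -0.24 and 0.01 elsewhere. The other 2 probes had means of -0.16 and -0.06 at 300 ng/ml, so the lower value of the brightest was not shared by them. The dimmest of the 3 was not well above background on the arrays at 1000 ng/ml.

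Ptpn6, a phosphatase that dampens receptor signals, had ratios of -0.54 and -0.69 at 300 ng/ml and of 1.05 and 0.63 at 1000 ng/ml as labelled for its brightest probe (mm8, chromosome 6, from 124686715 to 124686774). At 10 ng/ml its mean was -0.11 and in Pax5sz2 -0.02. A second probe of Ptpn6 had -0.33 at 300 ng/ml and 0.15 at 1000 ng/ml, and the third, dim at 1000 ng/ml, had 0.09 and 0.02. The probes thus differed in size, and the third also in sign at 300 ng/ml.

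The channel levels of all 10 genes on the 1000 ng/ml arrays were set against the control median of the 6 other arrays. The RNA labelled as treated differed from that median by 0.37 for Blnk, 0.64 for Cd79a, 0.002 for Cd79b, 0.16 for Plcg2, 0.23 for Blk and 0.08 for Ptpn6. The RNA labelled as control differed from it by 4.57 for Blnk, 2.08 for Cd79a, 0.50 for Cd79b, -0.71 for Plcg2, -0.74 for Blk and -0.76 for Ptpn6, further in each of these 6 genes. Btk differed by 0.30 in the RNA labelled as treated and 0.54 in the RNA labelled as control, Syk by 0.32 and 0.34, Pik3ap1 by 0.27 and 0.26, and Lyn by 0.36 and -0.19 in that order. Levels across the array sets were normalised together but scanned under different protocols, and whether the labels, the slides or the dose stand behind these differences was not tested.

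**Figure D3:**
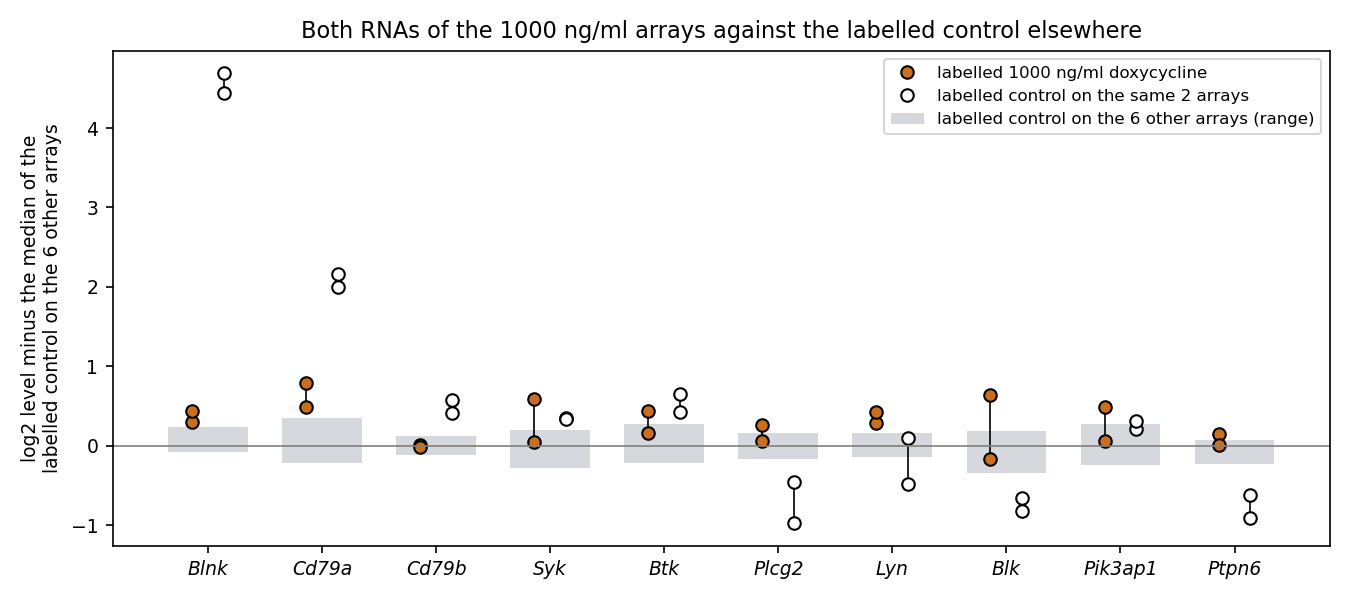
Normalised log2 level of both RNAs of the 1000 ng/ml arrays, minus the median of the labelled control on the 6 other arrays, for the brightest probe of each gene. Filled circles are the RNA labelled 1000 ng/ml, open circles the RNA labelled control on the same arrays, and grey boxes the range of the control elsewhere: the open circles of Blnk lay 4.57 above the median on average.

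The mean effect of doxycycline across the 3 doses was the only contrast with more than 1 RNA sample, and it was fitted with limma on all 20002 features. As labelled, 0 features passed an adjusted p of 0.05 (0%), with 1186 under an unadjusted p of 0.05, and none of the 10 genes passed. Cd79b had a mean effect of -0.55 (SE 0.087), lower at 3 of 3 doses, with an unadjusted p of 0.00561 and an adjusted p of 0.701 in limma. Blnk had -0.83 (SE 1.51), lower at 2 of 3 doses, with a limma adjusted p of 0.885. With the sign of the 1000 ng/ml pair turned, 0 features passed again, with 4901 under an unadjusted p of 0.05. Blnk then had 1.97 (SE 1.11) and a limma adjusted p of 0.341, and Plcg2 -0.67 (SE 0.14), lower at 3 of 3 doses, with an adjusted p of 0.128.

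Without the 1000 ng/ml pair, 2876 features passed in limma (14.4%), and again none of the 10 genes. Cd79b then had -0.57 (SE 0.10) and an adjusted p of 0.0577, lower at both doses, and Blnk 0.86 (SE 1.02), its 2 doses being on opposite sides of 0. Differences between doses count as spread in this fit, and the spread of the control RNA is left out of it.

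Of 103 other genes listed for the pathway, 99 were tested. By the 2-fold rule 4 were higher and 2 lower with 10 ng/ml (6.06%), 6 higher and 12 lower with 300 ng/ml (18.2%), 8 higher and 8 lower with 1000 ng/ml as labelled (16.2%), and 9 higher and 9 lower in Pax5sz2 (18.2%). Their median log2 ratios were -0.09, -0.13, 0.08 and -0.05 in that order. Of all features, 1.88%, 3.71%, 2.58% and 5.15% passed the same rule in either direction, in that order. These shares also stand beside the counts of each list below.

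Among the 5 receptor partners, which pair with Cd79a and Cd79b at the surface or assist in that, 0 passed at 10 and 300 ng/ml. The heavy chain gene Ighm was the 1 of 5 that passed at 1000 ng/ml as labelled, as lower (-1.03 ± 0.01). In Pax5sz2 3 were higher and 1 lower. The surrogate light chain gene Vpreb1 was at 17.84 and 17.79 (normalised log2 intensity) in Pax5sz2 RNA, against 9.29 and 10.57 in the control on the same arrays, a log2 ratio of 7.88 ± 0.94. Igll1, which encodes lambda 5, the other surrogate light chain, was at 14.65 and 14.01 in Pax5sz2 RNA. In the control there it was at 8.69 and 8.66, a ratio of 5.65 ± 0.44, with a second probe at 0.98. Vpreb2 had a ratio of 4.23 ± 0.35 in Pax5sz2. These genes were thus far higher in Pax5sz2, the cells in which Blnk was 10.6-fold lower. The control RNA itself read only 6.22 to 6.24 for Igll1, 6.07 to 6.14 for Vpreb1 and 6.57 to 6.60 for Vpreb2 on the arrays of 10 and 300 ng/ml. For Vpreb2 it read 8.78 and 9.21 on the Pax5sz2 arrays. The control readings of all 3 genes thus differed between pairs of arrays, and these ratios depend on which is taken. Vpreb3, whose product assists in receptor assembly, went the other way, with -1.28 ± 0.11 in Pax5sz2.

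Of 10 other tyrosine kinases tested, Zap70, the T cell relative of Syk, was lower at 300 ng/ml (-1.08 ± 0.05) and at least 2.13-fold higher at 1000 ng/ml as labelled. The Src-family kinase Fgr was higher in Pax5sz2 (1.79 ± 0.22). Ptk2b did not pass, with -2.29 and -0.78 at 300 ng/ml. The members' own Src-family kinases Lyn and Blk had no such higher value in Pax5sz2.

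Of 24 other adaptors tested, 5 were lower at 300 ng/ml and 3 were higher at 1000 ng/ml as labelled. Lat2, an adaptor of the membrane that Syk-family kinases phosphorylate, had ratios of -1.53 and -1.59 with 300 ng/ml and 2.86 and 2.87 with 1000 ng/ml, opposite in sign to Blnk in both. Clnk, a relative of Blnk, had -1.40 ± 0.25 at 300 ng/ml and was at least 2.57-fold higher at 1000 ng/ml, where its other probe had 0.26. Dok3, an inhibitory adaptor, was lower at 300 ng/ml (-1.69 ± 0.38) and in Pax5sz2 (-1.14 ± 0.08). Hcls1 had -2.92 and -0.76 at 300 ng/ml and did not pass.

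Of 21 phospholipase, PI3 kinase and calcium genes tested, Pik3r1, the regulatory subunit gene of PI3 kinase, was lower at 300 ng/ml (-1.24 ± 0.08) and higher at 1000 ng/ml as labelled (2.20 ± 0.07). Rasgrp3, an activator of Ras downstream of phospholipase, was lower at 300 ng/ml (-1.58 ± 0.24), at least 3.70-fold higher at 1000 ng/ml and higher in Pax5sz2 (2.14 ± 0.14). Plcg1, the relative of Plcg2, was lower at 1000 ng/ml (-1.90 ± 0.03) and higher in Pax5sz2 (1.06 ± 0.02) by its brightest probe, where its other probe had -0.06 and -0.01. Prkcb, a protein kinase C that B cells use for NF-kB activation, was lower at 1000 ng/ml (-1.77 ± 0.14), with another probe at -0.96.

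Of 22 downstream factors tested, 4 immediate early genes were higher at 10 ng/ml: Fos (2.09 ± 0.31), Jun (1.79 ± 0.05), Egr1 (1.23 ± 0.12) and Egr2 (1.25 ± 0.14), the last 2 named after their values were seen. At 300 ng/ml Jun (2.36 ± 0.23), Fos (1.41 ± 0.14) and Egr2 (1.38 ± 0.03) were higher again. Egr1 had 1.59 on the second array there, its outlier spot on the first being left out. At 1000 ng/ml as labelled Fos had -0.02 and Jun was lower (-1.12 ± 0.04), while Egr1 (-0.77) and Egr2 (-0.59) did not pass. Ikzf3, which encodes Aiolos, had 1.28 ± 0.27 with 300 ng/ml, -3.08 ± 0.48 with 1000 ng/ml and 1.31 ± 0.17 in Pax5sz2 by its brightest probe, its other 2 probes staying under 2-fold in each. Nfatc3 was lower in Pax5sz2 (-2.22 ± 0.27), with another probe at -0.74.

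Of 17 inhibitory and co-receptor genes tested, the inhibitory receptor gene Pirb had -2.03 ± 0.03 at 300 ng/ml and was at least 3.77-fold higher at 1000 ng/ml. Cd5 was higher (1.61 ± 0.32) and Siglecg lower (-1.63 ± 0.13) at 1000 ng/ml as labelled.

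Markers of other cells also differed between the RNAs. By the 2-fold rule in either direction, 1.88% of all features passed at 10 ng/ml and 3.71% at 300 ng/ml. At 1000 ng/ml 2.58% passed, and in Pax5sz2 5.15%. Of the 18 myeloid markers on the array, 17 were tested, and 5 of them, Tyrobp, Fcer1g, Mpo, Ctsg and Fcgr3, were lower at 300 ng/ml and higher at 1000 ng/ml as labelled. Another Fcgr3 probe had -0.73 and 0.64 there and did not pass, while another Fcer1g probe passed in both (-2.53 and 3.10). The summed signal of all 17 was 10823 and 15610 in the treated RNA at 300 ng/ml, against 52475 and 48500 in the control. At 1000 ng/ml it was 61189 and 48747 in the RNA labelled as treated, against 8146 and 6617 in the RNA labelled as control. At 10 ng/ml Cebpb was higher (1.45 ± 0.04) and Tyrobp lower (-1.35 ± 0.15). Another Cebpb probe had 1.07 there and did not pass. Of the pathway genes named above, Lat2, Pirb and Fgr are also expressed in myeloid cells, as are Lyn, Syk and Ptpn6. By their brightest probes, all but Syk had means below 0 at 300 ng/ml and above 0 at 1000 ng/ml as labelled. Syk had -0.09 and -0.02 there, and Fgr was higher in Pax5sz2 (1.79). These genes were picked without a rule and are not a full list. Of the members left out, Btk went the other way, with 0.52 at 300 ng/ml and -0.24 at 1000 ng/ml. Plcg2 had -0.83 and 0.87 there, and Pik3ap1 -1.04 and 0.01. In Pax5sz2 3 myeloid markers were lower, Fcer1g, Ctsg and Fcgr3, and the sum over the 17 was 28693 and 31173 in Pax5sz2 RNA, against 57385 and 58620 in the control. The other Fcer1g probe had -0.92 there and did not pass, while the other Fcgr3 probe passed (-2.21). Of 16 stromal feeder markers tested, 3 were higher with 10 ng/ml, 7 with 300 ng/ml, 0 with 1000 ng/ml and 4 in Pax5sz2. Most of these calls were not shared by other probes. At 10 ng/ml those had -0.04 (Col3a1), 0.12 (Vcam1) and 0.90 (Cxcl12). At 300 ng/ml they had -0.02 (Col3a1), 0.44 (Vcam1), 0.66 (Sparc) and 0.10 to 0.37 (Col1a1). In Pax5sz2 they had 0.20 (Vcam1), -0.10 (Sparc) and 0.29 (Thy1). The other Cxcl12 probe passed at 300 ng/ml (1.22) and in Pax5sz2 (1.25). The summed signal of all 16 was 39493 and 45470 in the treated RNA at 10 ng/ml, against 20094 and 21827 in the control. At 300 ng/ml that sum was 52535 in the treated RNA on the second array, against 21059 in the control. On the first array it was 43739 against 14925 without Col1a2, whose outlier spot was left out there. The first array's sums are thus not comparable with the others. In Pax5sz2, where Blnk and Blk were lower, it was 38600 and 40369 in Pax5sz2 RNA, against 22103 and 22837 in the control. Of the 17 pro-B and pre-B markers, 7 passed in Pax5sz2: Igll1, Vpreb1 and Vpreb2 were higher, and Vpreb3, Dntt (-4.89 ± 0.32), Ebf1 (-1.58 ± 0.33) and Sox4 (-1.33 ± 0.10) were lower. Cd93 was higher, and Ebf1 was lower together with Cd79a, at 1000 ng/ml as labelled. These calls are for the brightest probes. The other Ebf1 probe had -0.25 in Pax5sz2 and -0.27 at 1000 ng/ml, and the other Cd93 probe 0.80 at 1000 ng/ml. Neither of these other probes passed there. Of 12 T lineage markers tested, 1 was lower with 300 ng/ml (Zap70) and 3 were higher with 1000 ng/ml as labelled (Cd5, Cd28 and Zap70). In bulk RNA fewer cells of a type and less RNA per cell cannot be told apart, and the part of these marker groups in the values above was not tested.

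By Euclidean distance over the 4 log2 ratios, the named features nearest to Blnk were Ttll11 (2.46), Bfsp2 (3.34), Rragd (3.59), Crhbp (3.60) and Sapcd1 (3.78). Ttll11, the nearest, had ratios of -0.44 with 10 ng/ml, 1.92 with 300 ng/ml, -3.11 with 1000 ng/ml as labelled and -1.37 in Pax5sz2, all smaller in size than those of Blnk. Rragd, which encodes a GTPase of the amino acid sensing pathway, was the one of the 5 that was lower by the rule at 10 ng/ml (-1.19) and had the largest fall in Pax5sz2 (-2.14). Bfsp2, Crhbp and Sapcd1 lay between 0.94 and 1.99 at 300 ng/ml and between -2.91 and -2.58 at 1000 ng/ml, with Pax5sz2 ratios of -0.62, -0.59 and -0.37 that did not pass.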

How the data were processed

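RNA of 4 comparisons was measured on 8 dual-channel arrays. Per the file headers, the deposited files hold mean spot intensity and median background intensity for each dye, with no normalization, from Agilent Feature Extraction 10.5.1.1, together with processed intensity and a log10 ratio of Cy5 over Cy3 made by that software. Agilent Feature Extraction is also named, without a version, in the submitters' processing notes. The deposited series matrix holds log10 ratios on the same scale, used as an alternative. The 1000 ng/ml pair was extracted without multiplicative detrending and with a multiplier of 2.6 for the call well above background, against 13 with detrending on the 6 other arrays. No aligner or genome build was needed, and probe positions are those in the files (mm8).

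Tables were read with data.table (package version 1.17.8) in R 4.3.3, and arrays were analysed with limma 3.58.1. Background was corrected by normexp (offset 50), ratios by loess within arrays (control spots at weight 0), and channel levels by Aquantile between arrays. Outlier spots (37 to 295 per array) were left out, and no spot was saturated. Ratios were turned to treated or Pax5sz2 RNA over control, probes were averaged, and each gene was represented by its brightest probe, with the others beside it. Tested features (20002) had a probe called well above background for one RNA on both arrays of a pair, in 1 or more pairs. Where an RNA was not so called, the fold is a lower bound taken against the detection level of its array. Dye-swapped arrays were averaged to 1 sample, because the labels name no separate cultures, and the small number of arrays sets the precision. The labels do not say whether the control RNA was 1 extract. The mean effect of 3 doses was fitted with limma (lmFit and eBayes, two-sided, Benjamini-Hochberg over all features). Figures used Python 3.11.15 with matplotlib 3.10.9.

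The members and lists were chosen with earlier results of these data known. Named genes are the 10 members, up to 4 genes with the largest ratio from each of 6 lists of other pathway genes, the 5 named features nearest to Blnk, and Pax5. Some genes that this rule names are not reported here. On simulated data with 19748 features, the 2-fold rule recovered 84% (300 ng/ml), 92% (10 ng/ml), 96% (1000 ng/ml) and 100% (Pax5sz2) of changes of log2 1.5, and 100% of changes of log2 2 or more. The simulated noise was the difference of the 2 arrays of a pair divided by 2, shuffled over features for 1 of them. That is smaller than the SD of the 2 arrays, so these shares may be too high for the real data. Alternatives were median centring, processed signals, no background correction, the deposited ratios, outlier spots kept, no or a stricter filter on dim probes, a mean over probes, each array left out, a size of 1.5-fold, the 1000 ng/ml sign turned or the pair left out, robust and trended eBayes, and arrays as samples with a random block. The turned sign for member counts was added after the data were seen.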

Additional observations from a re-analysis of the deposited data

Results flagged for a closer look

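In 11 instances, in 6 of the 10 genes, both arrays of one dose lay on the opposite side of 0 from both arrays of another dose, under the same contrast with clone 4 without doxycycline, and none of these differences was tested. In 2 of them the 1000 ng/ml pair has no part. Blnk had a log2 ratio of -0.90 at 10 ng/ml and of 2.62 at 300 ng/ml. Cd79a had -0.74 at 10 ng/ml and 0.16 at 300 ng/ml.

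The other 9 rest on the direction of the 1000 ng/ml pair, which is not settled. With its sign turned both doses would be on the same side of 0, which follows from the turning itself. Turning would also make new opposites. Blnk (4.20) and Cd79a (1.44) would then be opposite to 10 ng/ml (-0.90 and -0.74). Cd79b (0.49) would be opposite to 10 ng/ml (-0.71) and 300 ng/ml (-0.43). Blnk had 2.62 at 300 ng/ml and -4.20 at 1000 ng/ml as labelled, and Cd79a had 0.16 and -1.44 in that order. Lyn had -0.50 at 300 ng/ml and 0.55 at 1000 ng/ml as labelled. Plcg2 had -0.33 with 10 ng/ml and -0.83 with 300 ng/ml, both opposite to 0.87 with 1000 ng/ml. Blk had -0.43 with 10 ng/ml and -1.75 with 300 ng/ml, both opposite to 0.97 with 1000 ng/ml. Ptpn6 had -0.11 with 10 ng/ml and -0.62 with 300 ng/ml, both opposite to 0.84 with 1000 ng/ml.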

How the results depend on the processing

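Blnk, Cd79a and Blk kept their direction in all 4 comparisons under 7 alternative scalings, filters and probe rules, with Blnk between 2.54 and 2.84 at 300 ng/ml, between -4.38 and -4.16 at 1000 ng/ml as labelled and between -3.53 and -3.08 in Pax5sz2. Blnk passed the 2-fold rule at 300 ng/ml, 1000 ng/ml and in Pax5sz2 under every alternative run. The number of members that passed depended on the choices. With median centring 3 passed at 300 ng/ml (Blnk, Blk and Pik3ap1), 1 at 1000 ng/ml and 1 in Pax5sz2 (Blnk in both), and with the processed signals or the deposited ratios 2 passed at 300 ng/ml (Blnk and Blk). At a size of 1.5-fold, 3 passed at 10 ng/ml, 3 at 300 ng/ml and 5 at 1000 ng/ml, and Blnk, Cd79a and Blk in Pax5sz2. More of all features pass at this size as well, and those counts lie within the ranges over all features given below. Leaving out 1 array of each pair gave 1 to 4 members at 300 ng/ml and 3 to 4 at 1000 ng/ml, since without the second array, which had the treated RNA in Cy3, Plcg2, Blk and Pik3ap1 passed at 300 ng/ml as lower and Blk and Ptpn6 at 1000 ng/ml as higher. Over all features the counts ranged from 149 to 1669 at 10 ng/ml (375 in the main setting), 480 to 2506 at 300 ng/ml (735), 192 to 1366 at 1000 ng/ml (514) and 681 to 2795 in Pax5sz2 (1031). These ranges are not split by setting, so no excess of members over all features can be read from the member counts above. The cause of these moves was not tested.

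The mean effect in limma passed for 0 features as labelled, for 2876 without the 1000 ng/ml pair and for 1 with arrays as samples and a random block, none of them a member. Mean effects near 0 changed sign: Syk was at 0.049 with median centring, Plcg2 at 0.076 with median centring, 0.098 with the processed signals and 0.078 with the deposited ratios, and Ptpn6 at -0.0099 with the mean over probes. Leaving out 1 array of each pair gave -0.22 to 0.033 for Plcg2, -0.19 to 0.21 for Lyn, -0.074 to 0.15 for Ptpn6, -0.20 to 0.15 for Syk and -0.17 to 0.37 for Btk. With the 1000 ng/ml sign turned the mean effects became 1.97 for Blnk, 0.29 for Cd79a, -0.36 for Lyn and -0.52 for Ptpn6, and the ratios at 1000 ng/ml 4.20 for Blnk and 1.44 for Cd79a. Without that pair they were 0.86 for Blnk, -0.26 for Lyn and -0.36 for Ptpn6. No paired analysis was possible because the labels give no replicate numbers and each comparison holds 1 RNA sample of each kind. With 1 clone and 1 RNA per dose, the values describe these RNAs, and signal near background on the 1000 ng/ml arrays limits what can be said of dim probes there.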
